A study of Mus musculus with 42 samples.

Results

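A set of 37 interferon-stimulated genes was followed in *Tug1*-/- and wild-type mice, out of 26653 genes listed for each tissue. *Tug1* is a long noncoding RNA locus. The 37 genes were taken by name from a list chosen with earlier results of these data known, and all 37 were found. RNA had been sequenced from testes, prostate, spleen, eyes, heart and liver and from mouse embryonic fibroblasts (MEFs), in 42 samples, of which 22 were wild-type and 20 were knockout. The wild-type samples numbered 4 in testes and 3 in each other tissue, and the knockout samples numbered 2 in prostate and 3 in each other tissue.

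Every mouse was of the Tug1_tm1.1Vlcg strain on a C57BL/6J background (N3-C57BL/6J, no Neo) and is labelled male. The knockout mice carried a lacZ reporter in the place of *Tug1* on both alleles, and the wild-type mice carried 2 normal alleles. The knockout is of the whole body, so that no value can be assigned to a cell type in which *Tug1* is missing, and the lacZ reporter separates the genotypes together with the loss of *Tug1*. The MEFs were primary fibroblasts from littermate embryos, at passage 2. No treatment with interferon, virus or nucleic acid is named in the labels, so the values are read as basal levels. Whether the mice were free of infection was not checked. The age of the tissue donors is not given in the sources used here.

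Interferons are secreted proteins that warn cells of infection. They bind receptors at the cell surface, Janus kinases then phosphorylate STAT proteins, and a complex that includes STAT2 and IRF9 enters the nucleus and binds the interferon-stimulated response element (ISRE) in promoters. Interferon gamma acts mainly through another element, the gamma-activated site (GAS). The genes switched on in this way sense foreign RNA and DNA, degrade viral RNA, block viral entry and budding, or feed back on the pathway, and many of them are held at a low tonic level in uninfected tissue, most visibly in leukocytes.

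The promoters of 28 of the 37 genes were found in the RefSeq table for GRCm38.p6 and were searched, from 250 bases before to 50 bases after the start site, for the core letters of both elements on either strand. The ISRE core searched was GAAA, any 2 bases, GAAA, and the GAS core was TTC, any 3 bases, GAA. The 2 motifs can share bases and did so in 24 promoters of the whole table. At least 1 ISRE core was found in 16 of the 28 genes (57.1%), against 3.99% of the 27025 genes with a promoter in the table. At least 1 GAS core was found in 7 of the 28 (25%), against 9.55% of all genes. The 250 bases before the start site are shown for the 8 genes with a promoter whose values differed most between genotypes, because these are the genes on which the results turn. Capitals mark the matches to either core. Where a gene had more than 1 promoter in the table, the one listed first is shown.
Isg15, chr4:156200819-156201068, minus strand: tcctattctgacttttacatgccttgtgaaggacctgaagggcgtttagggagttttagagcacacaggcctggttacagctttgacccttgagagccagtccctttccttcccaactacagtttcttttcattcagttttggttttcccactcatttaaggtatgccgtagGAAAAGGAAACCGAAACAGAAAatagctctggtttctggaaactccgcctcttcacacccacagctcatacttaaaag
Rsad2, chr12:26456453-26456702, minus strand: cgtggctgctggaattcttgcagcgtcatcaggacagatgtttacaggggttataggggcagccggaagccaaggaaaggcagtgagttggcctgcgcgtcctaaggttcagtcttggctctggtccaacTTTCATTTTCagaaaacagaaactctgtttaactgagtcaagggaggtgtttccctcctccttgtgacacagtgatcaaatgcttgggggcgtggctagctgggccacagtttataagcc
Ifit3, chr19:34583279-34583528, plus strand: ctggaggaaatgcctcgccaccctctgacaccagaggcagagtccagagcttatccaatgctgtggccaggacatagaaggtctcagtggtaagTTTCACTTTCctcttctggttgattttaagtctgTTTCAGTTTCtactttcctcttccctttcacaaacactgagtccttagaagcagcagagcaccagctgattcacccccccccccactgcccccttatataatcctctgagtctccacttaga
Oas1a, chr5:120907526-120907775, minus strand: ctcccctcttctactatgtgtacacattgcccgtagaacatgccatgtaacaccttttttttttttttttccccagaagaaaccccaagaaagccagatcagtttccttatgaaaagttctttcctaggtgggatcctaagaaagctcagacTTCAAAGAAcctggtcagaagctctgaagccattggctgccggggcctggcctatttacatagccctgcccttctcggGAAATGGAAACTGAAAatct
Trim30a, chr7:104465194-104465443, minus strand: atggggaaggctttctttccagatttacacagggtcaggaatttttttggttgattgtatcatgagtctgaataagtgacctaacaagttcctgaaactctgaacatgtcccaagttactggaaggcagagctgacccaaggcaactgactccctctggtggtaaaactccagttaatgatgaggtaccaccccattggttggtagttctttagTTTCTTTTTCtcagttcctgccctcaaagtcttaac
Stat2, chr10:128270248-128270497, plus strand: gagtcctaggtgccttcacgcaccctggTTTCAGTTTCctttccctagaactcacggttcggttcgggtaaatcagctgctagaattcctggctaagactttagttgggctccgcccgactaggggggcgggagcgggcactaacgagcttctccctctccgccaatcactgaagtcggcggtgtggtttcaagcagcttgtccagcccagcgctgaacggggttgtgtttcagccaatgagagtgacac
Isg20, chr7:78913174-78913423, plus strand: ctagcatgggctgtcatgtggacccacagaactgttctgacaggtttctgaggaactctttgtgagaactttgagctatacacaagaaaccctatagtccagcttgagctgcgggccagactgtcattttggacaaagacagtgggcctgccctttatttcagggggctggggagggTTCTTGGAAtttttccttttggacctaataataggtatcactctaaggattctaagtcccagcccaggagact
Oasl1, chr5:114922990-114923239, plus strand: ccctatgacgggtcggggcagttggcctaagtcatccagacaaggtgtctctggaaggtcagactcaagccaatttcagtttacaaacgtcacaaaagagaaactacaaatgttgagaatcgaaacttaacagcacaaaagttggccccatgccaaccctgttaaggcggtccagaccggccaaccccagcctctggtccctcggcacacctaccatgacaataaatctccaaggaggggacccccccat

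In *Isg15*, 3 overlapping ISRE cores formed a single block, whose outermost base lay 78 bases before the start site. *Oas1a* held 2 overlapping ISRE cores directly before its start site and a GAS core 98 bases before it. *Ifit3* held 2 separate ISRE cores, while *Rsad2*, *Stat2* and *Trim30a* held 1 each. *Isg20* held a GAS core and no ISRE core, and *Oasl1* held neither. These are matches of letters. They do not show that a factor was bound, and the absence of a match says only that these letters were not in the window. *Oas2*, *Usp18* and 7 other members had no promoter in the table.

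Expression was read as FPKM, a level scaled by transcript length and library size, of which the deposited table gives 1 value per genotype and tissue with the replicates combined. No value per mouse, no read count and no depth is given. No test between genotypes and no standard deviation could therefore be computed, and whether a difference exceeds the spread between mice is unknown. The change was log2((KO + 0.1)/(WT + 0.1)), a scale on which differences of weakly expressed genes look smaller than they are. A gene was compared in a tissue where the mean of its 2 values was at least 1 FPKM. It was counted as higher or lower where it differed by more than 1.5 times, that is, by more than 0.59 on this log2 scale. As a check of the labels, *Tug1* lay between 11.2 and 27.7 FPKM in the wild-type groups and between 0.00753 and 0.402 FPKM in the knockout groups, with log2 changes from -5.66 in heart to -7.60 in spleen. The tissue identities were borne out by their markers, with *Prm1* at 9265 FPKM in wild-type testes, *Pbsn* at 25020 in prostate, *Cd79a* at 420.4 in spleen, *Crygs* at 2077 in eyes, *Tnnt2* at 6978 in heart, *Apoa1* at 12014 in liver and *Col1a1* at 1754 in MEFs.

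The basal level of the interferon-stimulated genes differed widely between tissues. Among the wild-type groups, spleen had a median of 17.0 FPKM, followed by heart with 6.04, liver with 4.62, eyes with 2.95, prostate with 2.33, testes with 0.869 and MEFs with 0.849. Spleen was the tissue with the highest wild-type value for 21 of the 37 genes, and liver for 8, heart for 4, testes for 2 and prostate and eyes for 1 each. The sum of FPKM over all genes also differed, the lowest being 378014 (wild-type eyes) and the highest 1124495 (wild-type liver). After every group was scaled to the same sum, spleen was highest for 28 genes and liver for 3. Testes held the lowest wild-type value for 22 of the genes and MEFs for 14. No member was under 1 FPKM in wild-type spleen, and 21 were under it in wild-type testes and 21 in wild-type MEFs.

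**Figure D1:**
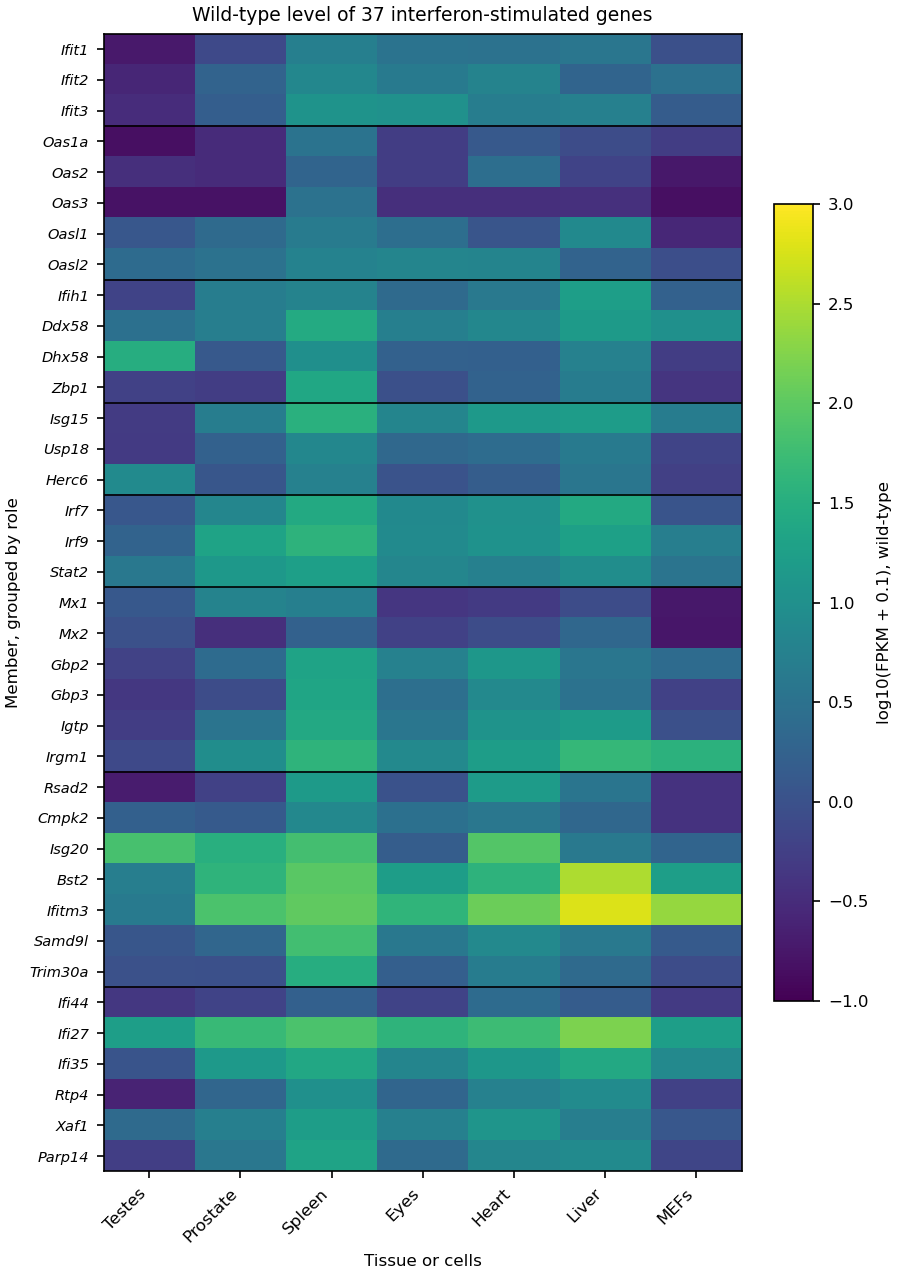
Wild-type level of the 37 genes (rows, grouped by role with black lines between groups) in the 7 tissues (columns), as log10(FPKM + 0.1), 1 deposited value for each cell of the grid. The spleen column is bright over most rows, with a median of 17.0 FPKM, and *Ifitm3* is bright in most columns, up to 618 FPKM in liver.

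*Ifitm3*, a membrane protein that hinders the entry of viruses, had the highest wild-type level of the set in every tissue except testes. Liver had 618 FPKM in wild-type and 603 in knockout, MEFs had 233 and 220.0, heart 126 and 133, spleen 105 and 102, prostate 73.1 and 79.5, and eyes 41.3 and 51.0. In testes its values were 4.29 and 5.83 FPKM, and the highest member there was *Isg20*, an exonuclease for single-stranded RNA, at 69.3 and 60.6 FPKM. *Dhx58*, which encodes the RNA sensor LGP2, was also highest in testes, at 31.0 FPKM in wild-type and 25.4 in knockout, against 9.89 and 7.76 in spleen. In testes, 17 of the 37 members passed the filter and 20 did not.

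Across all tissues, 197 of the 259 pairs of a gene and a tissue passed the filter on low values. Of these, 10 were higher in knockout, 3 were lower and 184 lay within the limit. Among the 90218 such pairs of all genes compared, 2.21% were higher and 1.29% were lower. The 13 differences fell on 10 genes, and 27 genes passed the limit in no tissue in which they were compared. *Isg15*, *Isg20* and *Ifit3* passed it in 2 tissues each. The other 7 passed it in a single tissue, as the map of changes shows.

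**Figure D2:**
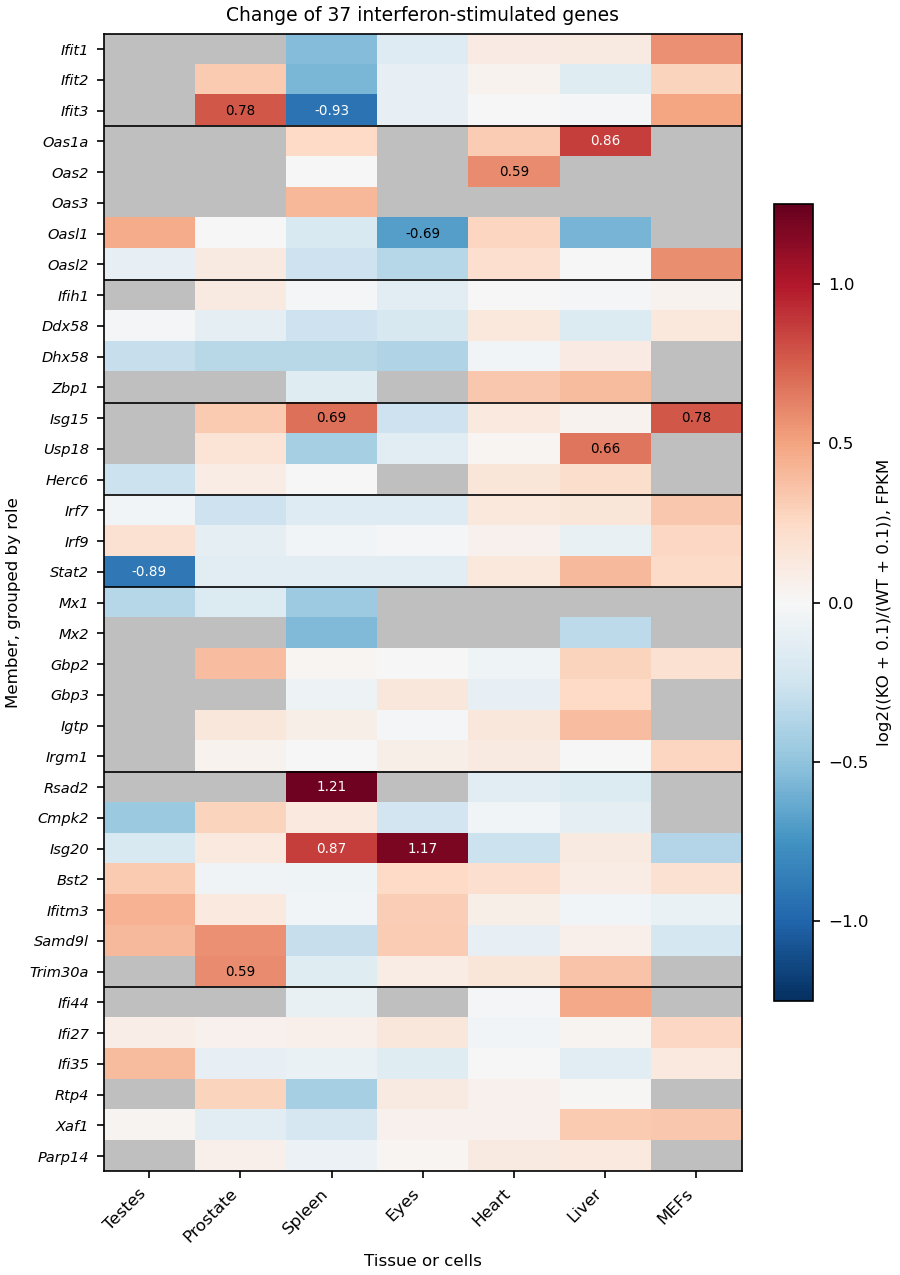
Change of each of the 37 genes (rows, grouped by role) in the 7 tissues (columns) as log2((KO + 0.1)/(WT + 0.1)) of FPKM, with red for higher and blue for lower in knockout and grey where the mean of both values was under 1 FPKM. Printed values mark the 13 changes of more than 1.5 times, from -0.93 for *Ifit3* to 1.21 for *Rsad2*, both in spleen.

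In spleen, where all 37 members were compared, 3 were higher and 1 was lower in knockout. *Rsad2*, which encodes the antiviral enzyme viperin, stood at 15.3 FPKM in wild-type and 35.6 in knockout, a log2 change of 1.21. *Isg20* stood at 64.1 and 116.9 FPKM (0.87), which made it the highest member in knockout spleen. *Isg15*, a ubiquitin-like protein that is attached to other proteins, stood at 34.5 and 55.6 FPKM (0.69). *Ifit3*, which belongs to a family of proteins that bind viral RNA, went the other way, from 11.2 in wild-type to 5.83 FPKM in knockout (-0.93). Among the 12618 genes compared in spleen, 4.91% were higher and 1.1% were lower in knockout by more than 1.5 times. The 3 higher and 1 lower among 37 are not far from that background. After both groups were scaled to the same sum of FPKM, 3 members were higher and 3 were lower in spleen.

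The set as a whole leaned slightly downward in spleen. The knockout value was above the wild-type value for 10 of 37 members, against 45.5% of all genes compared, and the median change of the members was -0.08 against -0.02 for all genes. The other IFIT genes were low with *Ifit3*: *Ifit1* had 5.18 FPKM in wild-type and 3.52 in knockout (-0.55) and *Ifit2* had 7.12 and 4.76 (-0.57), both within the limit. The 4 sensors of foreign nucleic acid lay at changes from -0.35 for *Dhx58* to -0.01 for *Ifih1*, which went to 0.01 after centring on the median of all genes, and the 3 transcription factors of the set, *Irf7*, *Irf9* and *Stat2*, from -0.16 to -0.03. *Usp18*, the protease that removes ISG15 from its targets and dampens receptor signaling, had 7.05 and 5.25 FPKM (-0.42) in the same spleens in which *Isg15* was higher. *Mx1* and *Mx2*, genes of the dynamin-like GTPase family, had changes of -0.46 and -0.56.

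*Rsad2* and *Cmpk2* are neighbors on chromosome 12 of GRCm38, 12.8 kb apart and on opposite strands, and are commonly induced together. *Cmpk2*, which encodes a mitochondrial nucleotide kinase, had 7.17 FPKM in wild-type and 7.81 in knockout spleen (0.12), while *Rsad2* differed by 1.21. In heart, both were close to wild-type, with -0.14 for *Rsad2* and -0.03 for *Cmpk2*. In liver, the changes were -0.17 and -0.12.

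Markers of neutrophils were higher in knockout spleen. Their summed level over 4 genes was 643 FPKM in wild-type and 1278 in knockout, and all 4 genes were above wild-type by more than 1.5 times, with *S100a8* at 283 and 561 FPKM, *S100a9* at 354 and 698, *Ly6g* at 1.30 and 2.84 and *Mpo* at 4.86 and 17.1. The sum of 4 B cell markers was 1489 FPKM in wild-type and 1191 in knockout, with 0 of 4 above wild-type, and the sum of 3 general leukocyte markers was 1285 and 1123, with 0 of 3 above. Macrophage markers summed to 520.0 and 519 FPKM, with 3 of 6 above, although *Cd163*, a scavenger receptor of resident macrophages, had 12.7 and 20.4. T cell markers summed to 181 and 166 (1 of 3 above), NK cell markers to 30.0 and 31.9 (2 of 3) and markers of plasmacytoid dendritic cells, among them the member *Bst2*, to 153 and 142 (0 of 4). The part of these differences in the changes of *Rsad2*, *Isg20*, *Isg15* and the IFIT genes was not tested. In bulk tissue, fewer cells of a type and less RNA per cell cannot be told apart.

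**Figure D3:**
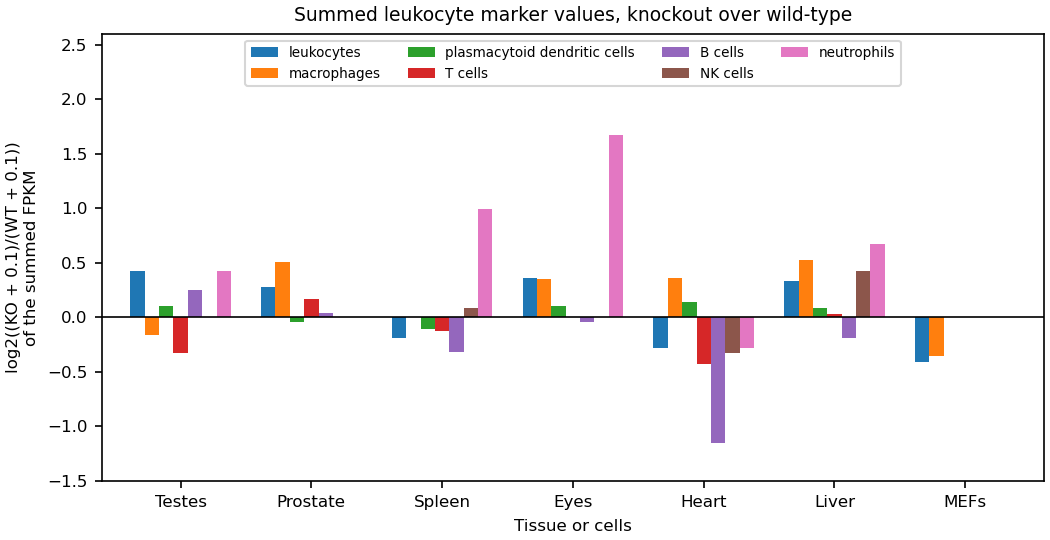
Change of the summed FPKM of 7 lists of leukocyte markers in the 7 tissues, as log2((KO + 0.1)/(WT + 0.1)), with 1 bar per list, *Bst2* being both a member of the set and a marker of plasmacytoid dendritic cells, no bar where the mean of both sums was under 1 FPKM, and no error bars because no replicate values were given. Neutrophil markers stand out upward in spleen (0.99) and eyes (1.67) and B cell markers downward in heart (-1.16).

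In the eyes, 28 members were compared, of which 1 was higher and 1 was lower in knockout. *Isg20* stood at 1.42 FPKM in wild-type and 3.33 in knockout (1.17). *Oasl1*, a relative of the 2′-5′ oligoadenylate synthetases that restrains translation of *Irf7* RNA, stood at 2.72 and 1.65 FPKM (-0.69). Its neighbor *Oasl2*, 11005 bases away on chromosome 5, had 6.54 and 5.09 FPKM (-0.35), within the limit. In eyes, 2.64% of the 14298 genes compared were higher and 0.867% were lower. The members with a knockout value above wild-type were 12 of 28, against 43.5% of all genes, and the median change was -0.06 against -0.02. All 3 IFIT genes, all 3 compared sensors and all 3 transcription factors lay below wild-type in the eyes, between -0.38 for *Dhx58* and -0.01 for *Irf9*, which went to 0.01 after centring. The sum of the neutrophil markers was 2.06 FPKM in wild-type and 6.78 in knockout eyes, with 3 of 4 above wild-type and *S100a8* at 0.628 and 2.55 FPKM. Macrophage markers summed to 44.5 and 57.0 FPKM, with 5 of 6 above and *Cd163* at 1.07 and 2.39. The part of these markers in the result was not tested.

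The level of *Isg20* varied widely between tissues. Heart had 85.9 FPKM in wild-type and 71.4 in knockout, testes 69.3 and 60.6, spleen 64.1 and 116.9, prostate 32.9 and 35.8, liver 4.12 and 4.46, MEFs 1.88 and 1.44, and eyes 1.42 and 3.33. The knockout value was therefore above wild-type in prostate, spleen, eyes and liver and below it in testes, heart and MEFs. As shown above, its promoter window held a GAS core and no ISRE core.

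In MEFs, 1 of the 19 members compared was higher and none was lower, but most of the set lay above wild-type. *Isg15* stood at 4.61 FPKM in wild-type and 7.98 in knockout (0.78). Just inside the limit were *Oasl2* at 0.815 and 1.27 FPKM (0.58), *Ifit1* at 0.849 and 1.31 (0.57) and *Ifit3* at 1.35 and 1.94 (0.50). *Ifit2* had 3.01 and 3.66 FPKM (0.27). The knockout value was above wild-type for 16 of 19 members, against 49.8% of the 11587 genes compared, and the median change was 0.26 against -0.00 for all genes. By more than 1.5 times, 0.975% of all genes were higher and 2.2% were lower. The 3 transcription factors had changes of 0.34 for *Irf7*, 0.26 for *Irf9* and 0.24 for *Stat2*. The 3 members below wild-type were *Isg20* (-0.36), *Samd9l* (-0.21) and *Ifitm3* (-0.08). The changes of 6 of the 19 members lay above the 95th percentile of all genes compared in MEFs (0.33), and none lay below the 5th percentile. The 6 were *Isg15*, *Oasl2*, *Ifit1*, *Ifit3*, *Xaf1* and *Irf7*. Of these, *Oasl2*, *Ifit1* and *Irf7* were under 1 FPKM in wild-type MEFs and passed the filter only through their knockout values. These genes are also among the 16 above wild-type, so both counts rest in part on how the filter chose the members. In the other tissues, between 1 of 28 members (eyes) and 4 of 17 (testes) lay above the 95th percentile, and between 0 of 34 (heart) and 7 of 37 (spleen) below the 5th.

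**Figure D4:**
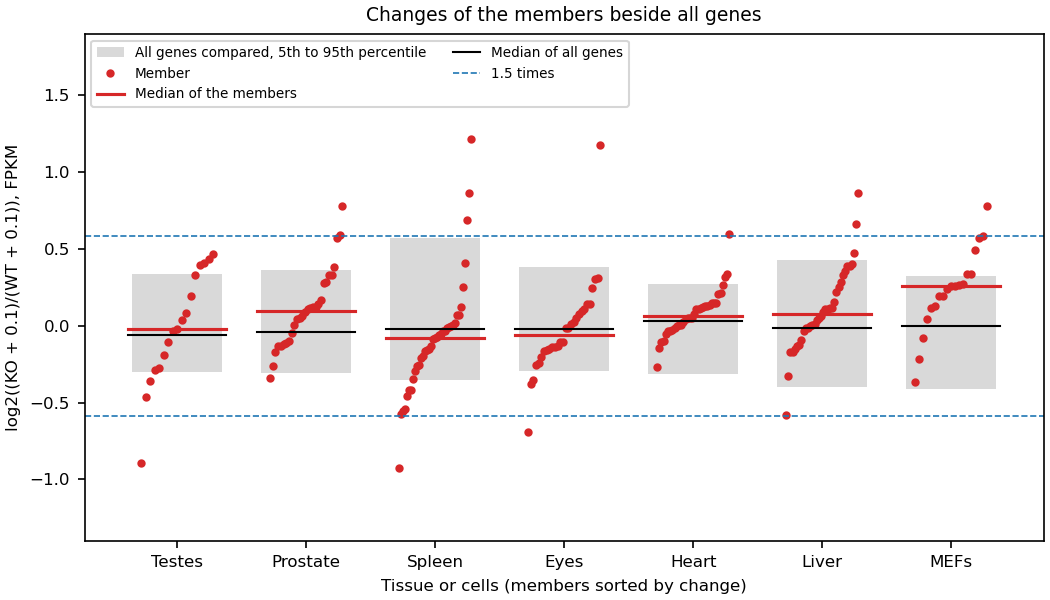
Change of each compared member (red points, sorted within a tissue), the members' median (red line) and the median of all genes compared (black line), with the 5th to 95th percentile of all genes in grey and the limit of 1.5 times dashed, as log2((KO + 0.1)/(WT + 0.1)) of FPKM. The members' median lies furthest from that of all genes in MEFs, at 0.26 against -0.00.

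Leukocyte markers were also read in MEFs, which are cultured fibroblasts. The sum of the 3 general leukocyte markers was 29.2 FPKM in wild-type and 22.0 in knockout MEFs, and that of 6 macrophage markers was 67.7 and 52.9, with 1 of 6 above wild-type. Markers of plasmacytoid dendritic cells, among them the member *Bst2*, summed to 41.97 and 41.98 FPKM, with 1 of 4 above wild-type. The part of these markers in the result was not tested. The T cell, NK cell, B cell and neutrophil sums were each under 1 FPKM in both genotypes of MEFs.

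**Figure D5:**
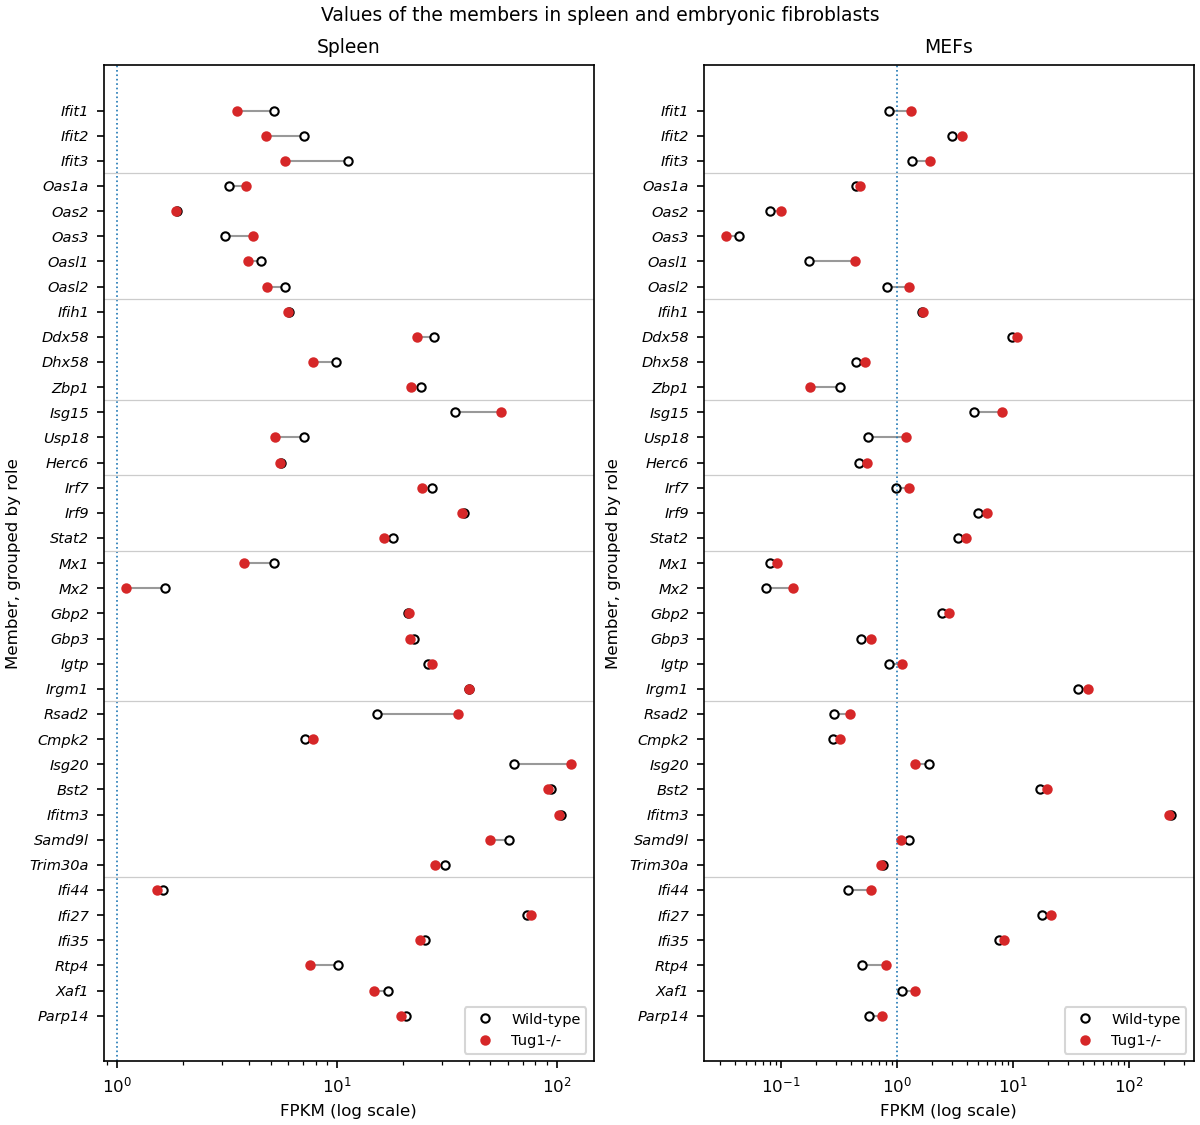
FPKM of the 37 genes in spleen (left) and MEFs (right) on log scales, with open circles for wild-type and red circles for *Tug1*-/-, 1 deposited value for each circle, and a dotted line at 1 FPKM. In spleen *Rsad2*, *Isg20* and *Isg15* are displaced to the right and the 3 IFIT genes to the left, and in MEFs the IFIT genes and *Isg15* are displaced to the right.

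*Isg15* had the same sign in 6 of the 7 tissues, although in testes it was under the filter. Spleen had 34.5 FPKM in wild-type and 55.6 in knockout, liver 16.4 and 17.0, heart 14.2 and 15.4, eyes 6.61 and 5.52, prostate 4.83 and 6.10, MEFs 4.61 and 7.98, and testes 0.393 and 0.811. The eyes were the exception, at -0.26. In heart and liver the changes were small, at 0.12 and 0.05.

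The 3 IFIT genes lie together on chromosome 19, *Ifit2* and *Ifit3* 7.11 kb apart and *Ifit3* and *Ifit1* 52.1 kb apart, all on the plus strand. All 3 were above wild-type in 4 tissues (testes, prostate, heart and MEFs), all 3 were below it in 2 (spleen and eyes), and liver was mixed. In testes all 3 were under the filter, in prostate *Ifit1* was under it (0.653 and 1.24 FPKM), and in heart the changes were between 0.01 and 0.11. After scaling to the same sum, *Ifit2* and *Ifit3* lay below wild-type in heart (-0.04 and -0.07) and all 3 lay above it in liver. For *Ifit3*, spleen had 11.2 FPKM in wild-type and 5.83 in knockout, eyes 10.3 and 9.56, liver 5.50 and 5.46, heart 4.93 and 4.95, prostate 1.46 and 2.57, MEFs 1.35 and 1.94, and testes 0.221 and 0.269. Knockout was thus below wild-type past the limit in spleen, and above it past the limit in prostate, at lower levels. In MEFs it was above wild-type but within the limit (0.50). Because *Ifit3* has a close copy, *Ifit3b*, and the genes resemble each other, reads may be shared among them, and their values are not independent.

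In prostate, 28 members were compared, with 2 higher and none lower. *Ifit3* was higher by 0.78. *Trim30a*, a regulator of innate signaling with close copies beside it, passed the filter only through its knockout value. It stood at 0.859 FPKM in wild-type and 1.34 in knockout (0.59), barely past the limit. *Samd9l*, an interferon-induced restriction factor, lay just inside it at 2.02 and 3.05 FPKM (0.57). In prostate, 2.4% of the 12166 genes compared were higher and 0.682% were lower. The members above wild-type were 19 of 28, against 39.1% of all genes, and the median was 0.10 against -0.04. With a mean of at least 5 FPKM, 12 members were left, and their median was 0.0001 against -0.05 for all genes. The 3 transcription factors were below wild-type, from -0.26 to -0.12. Macrophage markers summed to 33.7 FPKM in wild-type and 47.9 in knockout prostate, with 6 of 6 above wild-type and *Cd163* at 1.08 and 2.82, and their part in the result was not tested.

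In liver, 34 members were compared, with 2 higher and none lower. *Usp18* stood at 4.38 FPKM in wild-type and 7.01 in knockout (0.66). *Oas1a*, a synthetase that makes the second messenger that activates RNase L, stood at 0.759 and 1.46 FPKM (0.86). Its wild-type value was under 1 FPKM, and it passed the filter only through its knockout value. *Oasl1* lay just inside the limit on the other side, at 7.81 and 5.18 FPKM (-0.58). *Ifi44* and *Stat2* were the next highest in change, at 0.47 and 0.40. In liver, 2.55% of the 11711 genes compared were higher and 2.25% were lower. The members above wild-type were 22 of 34, against 45.5% of all genes, and the median was 0.08 against -0.02. Scaling both groups to the same sum of FPKM, which differed by -0.16 on the log2 scale, moved the members' median to 0.23 and the median of all genes to 0.14, so that both moved alike. The corresponding difference of the sums was -0.10 in testes and smaller in size elsewhere. Macrophage markers summed to 95.6 FPKM in wild-type and 137 in knockout liver, with 6 of 6 above wild-type, and neutrophil markers to 3.15 and 5.07, with 3 of 4 above. Their part in the result was not tested.

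In heart, 34 members were compared, with 1 higher and none lower. *Oas2*, another synthetase of the family, stood at 2.71 FPKM in wild-type and 4.14 in knockout (0.59), barely past the limit. The other compared members of the family were also above wild-type but within the limit, with 0.32 for *Oas1a*, 0.26 for *Oasl1* and 0.21 for *Oasl2*. *Oas2* and *Oas3* are neighbors on chromosome 5, 3.24 kb apart, and *Oas3* was under the filter in heart, at 0.252 and 0.230 FPKM. In heart, 0.874% of the 12695 genes compared were higher and 1.44% were lower. The members above wild-type were 24 of 34, against 58.6% of all genes, and the median was 0.06 against 0.03. After scaling to the same sum, the medians were -0.01 and -0.05. B cell markers summed to 30.6 FPKM in wild-type and 13.7 in knockout heart, with 0 of 4 above, and macrophage markers to 114 and 146, with 6 of 6 above. Their part in the result was not tested.

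In testes, 17 members were compared, with none higher and 1 lower. *Stat2*, the subunit through which interferon alpha and beta signal, stood at 3.86 FPKM in wild-type and 2.03 in knockout (-0.89). In the other 6 tissues it lay within the limit, between -0.14 and 0.40. Its partner *Irf9* had 1.77 and 2.03 FPKM in testes (0.19) and *Irf7* had 1.10 and 1.07 (-0.03). In testes, 1.17% of the 15143 genes compared were higher and 0.753% were lower. The members above wild-type were 8 of 17, against 36.4% of all genes, and the median was -0.02 against -0.06. Among the 20 members under the filter, the GTPases *Gbp3* (0.353 and 0.823 FPKM), *Gbp2* (0.520 and 1.02), *Igtp* (0.426 and 0.833) and *Irgm1* (0.658 and 1.20) had a higher value in knockout. The other GTPases did not share this, with *Mx2* at 0.869 and 0.883 FPKM under the filter and *Mx1* past it at 1.18 and 0.901 (-0.36). *Ifi44*, also under the filter, had 0.348 and 0.194 FPKM. General leukocyte markers summed to 3.24 FPKM in wild-type and 4.39 in knockout testes, with 3 of 3 above wild-type. The sums of B cell, neutrophil and plasmacytoid dendritic cell markers were also above wild-type, with 4 of 4, 1 of 4 and 2 of 4 markers above. The 1 neutrophil marker was *Mpo*, at 1.59 and 2.34 FPKM, and the member *Bst2* was among the 2 of plasmacytoid dendritic cells. Macrophage markers summed to 621.74 and 554.95 FPKM, with 5 of 6 above but *Aif1* at 607.7 and 537.42. The T cell and NK cell sums were below wild-type, with 2 of 3 and 0 of 3 markers above. The part of these markers in the values of the members was not tested.

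Of the genes around the set in the pathway, 102 were listed by role and 101 were in the table. None of 9 interferon ligands passed the filter in any tissue. The highest ligand value was that of *Ifng* in spleen, at 0.774 FPKM in wild-type and 0.659 in knockout. No receptor or kinase (9 listed), no listed transcription factor outside the set (7) and no negative regulator (10) passed the limit in any tissue. Over all tissues, 2.21% of the pairs of all genes compared were higher and 1.29% were lower. Few would thus be expected in lists this short, and their absence does not show that this part of the pathway was unchanged. *Ifnar1*, a subunit of the receptor for interferon alpha and beta, lay between -0.11 in spleen and 0.18 in prostate.

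Of the remaining pathway genes, 8 pairs of a gene and a tissue were higher and 4 were lower. In MEFs, 2 of 61 compared pathway genes were higher and 1 was lower, against 0.975% and 2.2% of all genes. *Cxcl10*, a chemokine that attracts T cells, stood at 2.67 FPKM in wild-type and 6.26 in knockout (1.20), and *Mlkl*, the effector of necroptosis, at 3.07 and 4.85 (0.65). *Ifitm1*, a relative of *Ifitm3*, stood at 2.57 and 1.62 FPKM (-0.63). In prostate, 3 of 65 were higher, against 2.4% of all genes: the GTPase genes *Iigp1* (0.81) and *Ifi47* (0.77) and the nucleic acid binding gene *Ifi203* (0.74). In liver, 3 of 78 were higher, against 2.55% of all genes, namely the RNA receptor *Tlr7* at 0.634 and 1.39 FPKM (1.03), the chemokine *Cxcl9* at 4.38 and 7.20 (0.70) and *Slfn2* at 2.24 and 3.44 (0.60).

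On the lower side, all genes compared passed the limit at 1.1% in spleen, 1.44% in heart and 0.753% in testes. The helicase gene *Ddx60* was the only 1 of 88 compared pathway genes past the limit in spleen, at 3.13 FPKM in wild-type and 1.75 in knockout (-0.81). It was also the only 1 of 81 in heart, at 1.57 FPKM in wild-type (-0.60). *Slfn5* was the only 1 of 46 in testes, at 2.56 and 1.52 FPKM (-0.72). In eyes, 0 of 70 passed the limit in either direction, against 2.64% of all genes higher and 0.867% lower. The median change over all compared pathway genes lay between -0.07 in spleen and 0.10 in testes, and was 0.07 in MEFs.

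Some members overlap other genes in the GENCODE vM21 annotation. *Irf7* overlaps *Phrf1* and *Rtp4* overlaps *Masp1* on the opposite strand, and *Irf9* overlaps *Rnf31* and *Igtp* overlaps *Irgm2* on the same strand. *Oasl1* and *Ifi35* have antisense genes in the table. Other members, among them *Dhx58*, *Usp18* and *Oas2*, overlap genes on the opposite strand that have no values here. The library kit does not keep the strand, so reads from such overlaps cannot be assigned with certainty. The OAS, GBP, TRIM30 and IFITM families hold close copies as well, and the values of *Oas1a*, *Gbp2*, *Gbp3*, *Trim30a* and *Ifitm3* are uncertain to that extent.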

How the data were processed

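PolyA RNA of 42 samples (22 wild-type, 20 knockout) from 7 tissues had been sequenced as paired reads from libraries of the TruSeq RNA Sample Preparation Kit v2. The authors deposited 1 table in the layout of Cuffdiff, with 1 FPKM value per gene, genotype and tissue, the replicates combined. The unit is not named in the header and was taken from that layout. The submitters' processing notes name CASAVA 1.8.2, TopHat2, Cuffdiff and mm10, without their roles, while the paper's methods describe another route for the authors' own calls. The table's columns of the authors' comparison (log2 fold change, test statistic, p, q and a call) were not used. Rows of 1 further tissue, for which no sample is labelled, were not analysed here. No counts are given, so depth is unknown.

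Groups were taken from the labels. The 37 members and all lists were chosen with earlier results of these data known. The change was log2((KO + 0.1)/(WT + 0.1)), for genes with a mean of at least 1 FPKM over both genotypes, with a limit of 1.5 times, which the study applied near *Tug1*. All comparisons are descriptions without a test. Named were the members past the limit in each tissue (the 3 of largest change where none passed), the member of highest level, and at most 4 genes per pathway or marker list, tissue and direction. Other genes named for their role or position, such as the remaining IFIT, OAS and GTPase genes, *Cmpk2* and *Ifnar1*, and values just inside the limit, were chosen after their values were seen. Positions came from GENCODE vM21 (GRCm38), promoters from RefSeq (GRCm38.p6). Alternatives were pseudocounts of 1 and 0.01, no filter, a mean of at least 5 FPKM, scaling to the same sum, centring on the median of all genes, completed comparisons only, and a limit of 2 times. Only the change and the limit were checked on simulated data, with planted changes larger than the limit and less spread than in the real values. The other steps were not tested in this way. Python 3.11.15, numpy 2.4.6, pandas 2.3.3 and matplotlib 3.10.9 were used. Some items are not reported here.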

Additional observations from a re-analysis of the deposited data

How the results depend on the processing

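No paired analysis was possible because the deposited table holds 1 value per genotype and tissue, and for the same reason no replicate could be left out. The shares of all pairs past the limit, 2.21% higher and 1.29% lower, hold for the settings used above. They are not given for the alternatives, so the counts below are not set against a background and describe the members alone. Over all tissues 10 differences of members were higher and 3 lower as reported. These totals were 5 and 2 with a pseudocount of 1, 13 and 5 with 0.01, 21 and 5 without a filter, 5 and 1 with a mean of at least 5 FPKM, 13 and 5 after scaling to the same sum, 10 and 3 after centring, 10 and 3 with completed comparisons only, and 2 and 0 with a limit of 2 times, where *Rsad2* in spleen and *Isg20* in eyes were left. With a pseudocount of 1, the counts of higher members became 0 in heart, liver and prostate and that of lower members 0 in eyes. With 0.01, 3 were higher in MEFs, and 2 were lower in spleen and 1 in liver. Without a filter, 3 were higher in MEFs, 5 in prostate and 6 in testes, 1 was lower in MEFs and 2 in testes, and the median of testes became 0.0944. With a mean of at least 5 FPKM, 0 were higher in eyes, heart and prostate and 1 in liver, and 0 were lower in eyes and testes. After scaling, 0 were higher in heart and 3 in MEFs, 3 were lower in spleen, and the median of liver became 0.23. After centring, 0 were higher in heart. With a limit of 2 times, 0 were higher in heart, liver, MEFs and prostate and 1 in spleen, and 0 were lower in eyes, spleen and testes. The other 82 of 112 counts stayed within 1.5 times, and 47 of 49 medians moved by at most 0.1. The 8 higher and 4 lower pathway differences became 2 and 1 with a pseudocount of 1, 38 and 8 without a filter, 1 and 0 with a mean of at least 5 FPKM, 13 and 4 after scaling, and 2 and 0 with a limit of 2 times. The cause of these shifts was not tested. Depth is unknown, so no limit of detection can be given.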
